A study of Mus musculus with 4 samples.

Results

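The Deaf1 peaks of C2C12 cells were grouped into peak-dense domains, stretches of chromosome in which at least 5 peaks followed one another with gaps of at most 20 kb. The chains were built from the peaks of replicate 2 on chromosomes 1 to 19 and X. A single very large chain at chr10:122794610-123005600, with 156 replicate 2 peaks, was set aside by the rule. This left 59 domains, which held 559 of the 3126 replicate 2 peaks, or 17.9%. Replicate 1 took no part in choosing them and is used as the second reading. It placed 328 of its 1860 peaks, or 17.6%, inside the same domains. The members were thus chosen by the positions of replicate 2 peaks, and values of replicate 2 inside the domains are given as a description.

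C2C12 is an established line of mouse myoblasts, the dividing precursors of skeletal muscle fibres, grown here in DMEM. The series holds 4 libraries: 2 from chromatin immunoprecipitation with an antibody to Deaf1 and 2 inputs without antibody, all from cells with no further treatment or genotype in the labels. The labels describe formaldehyde fixation and sonication and also speak of native ChIP, a conflict that was not settled, and nothing says that the replicates came from separate cultures. The inputs' own values were not analysed here, and both ChIP libraries belong to 1 group, so no comparison of conditions and no test over samples is possible.

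Deaf1 is a transcription factor that contacts DNA through a SAND domain and carries a MYND zinc finger for contacts with other proteins. The binding sites described for it are short and hold an unmethylated CpG, with words such as TTCG and TTTCCG that are often found in pairs. It binds promoters rich in CpG and is known to bind near its own gene. A ChIP peak is a place where immunoprecipitated fragments pile up above the local background. Its summit is the base with most fragments.

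The libraries are described here by the number of fragments stacked at each summit, called the pileup, which was recovered from the deposited fold enrichment and p-value of each peak. The peak caller's genome-wide background was 1.802 fragments in replicate 1 and 2.09 in replicate 2, and read totals were not given in the peak lists. Over all peaks the median pileup was 22 in replicate 1 and 23 in replicate 2. Intervals on pileups are exact Poisson 95% intervals, those on shares are exact Clopper-Pearson binomial 95% intervals, and both cover counting error only. Those on shares treat neighbouring peaks and overlapping promoter windows as independent, which they are not.

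Most domains held 1 tall summit among lower, narrower peaks. In replicate 1 the tallest summit of a domain held a median of 75 fragments (lowest 20, highest 141), and the other 269 domain peaks held a median of 17 (lowest 11, highest 83). The median width was 1120 bp for the tallest peaks, 31 of which were wider than 1 kb, and 160 bp for the others. Replicate 2 gave medians of 98 and 18 fragments. Each domain has a tallest peak by construction, and the size of the step below it is what the lists add. Among the 53 domains with at least 2 peaks in replicate 1, the tallest summit held a median of 2.91 times the fragments of the second, and in 38 of them it held at least 2 times as many. Among the exceptions, the tallest and second held 84 and 83 fragments near Esp38, 34 and 32 at Pfdn6, and 23 each at Mettl21a. In replicate 2 the median ratio was 3.2, and 43 of 59 domains reached a ratio of 2.

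The tallest summit was the same place in both libraries for nearly all domains. The tallest peaks of the 2 replicates overlapped in 54 of 59 domains. Over all 59 domains the tallest summits were a median of 13 bp apart, and 52 lay within 100 bp of each other. The replicate 2 summit held more fragments in 59 of 59 domains, by a median factor of 1.297 (lowest 1.06, highest 1.53). The genome-wide background of replicate 2 was 1.16 times that of replicate 1.

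**Figure D1:**
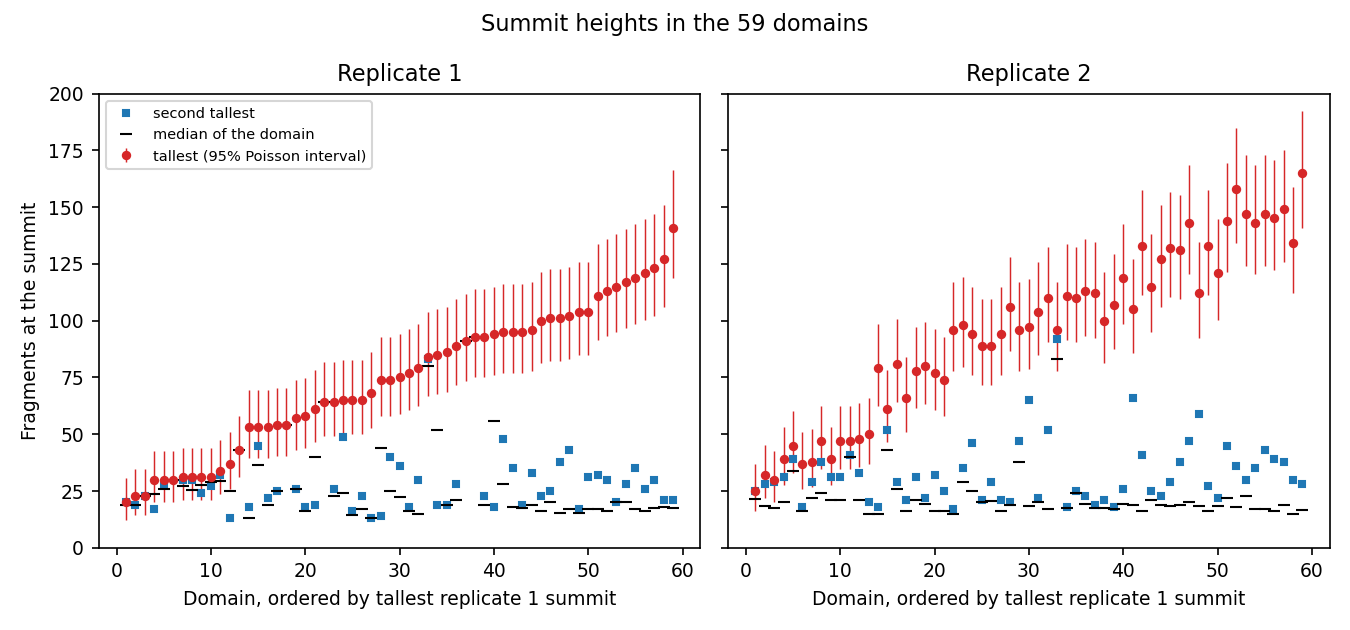
Fragments at the summit for each of the 59 domains, in order of their tallest replicate 1 summit, with replicate 1 on the left and replicate 2 on the right. Red points are the tallest summit with its exact Poisson 95% interval, blue squares the second tallest, and dashes the domain's median, which equals the tallest point where a domain has 1 peak. Most tallest summits stand well above the second and the median, and at the left end 13 domains stay between 20 and 43 fragments in replicate 1.

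The sequences below hold the letters whose frequency differed between tallest domain peaks and other peaks in the promoter table, so they are shown before the remaining values. They are the 250 bases before a gene's start, read 5′ to 3′ on the gene's strand, from RefSeq on GRCm38.p6. In the first set the capitals mark the 13-letter pattern TCGGNNNTTTCCG, in which N is any base, found on either strand. Read on the other strand, it ends in CCGA. The pattern and the genes shown were chosen after their values were seen. The Creb1 window is chr1:64532554-64532803 on the plus strand, and Myl4 is chr11:104550413-104550662 on the plus strand. The other windows lie on the minus strand, at chr8:70776713-70776962 for Pik3r2, chr11:104550621-104550870 for Cdc27, chr19:7341861-7342110 for Mark2, chr14:54686966-54687215 for Acin1 and chr7:13037979-13038228 for Ube2m. Acin1 and Ube2m are shown as tall domains whose printed window holds no match, and their sequences have no capitals. Another Ube2m window at the same tallest peak, not printed, does hold a match.
Creb1: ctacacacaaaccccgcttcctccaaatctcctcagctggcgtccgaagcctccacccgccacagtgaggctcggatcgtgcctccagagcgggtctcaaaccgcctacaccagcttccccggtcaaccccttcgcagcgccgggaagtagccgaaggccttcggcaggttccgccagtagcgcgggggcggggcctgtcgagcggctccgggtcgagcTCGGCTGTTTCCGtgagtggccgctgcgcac
Pik3r2: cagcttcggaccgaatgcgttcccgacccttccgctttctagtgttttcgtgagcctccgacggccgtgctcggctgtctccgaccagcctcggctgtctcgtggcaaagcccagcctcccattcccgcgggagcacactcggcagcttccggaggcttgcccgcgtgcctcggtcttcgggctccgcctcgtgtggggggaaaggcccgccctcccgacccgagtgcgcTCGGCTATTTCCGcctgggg
Cdc27: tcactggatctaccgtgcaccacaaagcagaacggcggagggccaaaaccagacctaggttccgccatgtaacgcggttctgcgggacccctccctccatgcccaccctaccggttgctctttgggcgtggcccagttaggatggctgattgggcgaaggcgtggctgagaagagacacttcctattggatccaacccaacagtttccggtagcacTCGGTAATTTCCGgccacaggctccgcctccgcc
Myl4: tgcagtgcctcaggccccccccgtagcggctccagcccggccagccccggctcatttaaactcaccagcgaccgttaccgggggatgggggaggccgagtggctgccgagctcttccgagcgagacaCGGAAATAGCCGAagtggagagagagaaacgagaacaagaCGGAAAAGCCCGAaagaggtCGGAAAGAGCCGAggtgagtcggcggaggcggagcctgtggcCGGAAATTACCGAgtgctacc
Mark2: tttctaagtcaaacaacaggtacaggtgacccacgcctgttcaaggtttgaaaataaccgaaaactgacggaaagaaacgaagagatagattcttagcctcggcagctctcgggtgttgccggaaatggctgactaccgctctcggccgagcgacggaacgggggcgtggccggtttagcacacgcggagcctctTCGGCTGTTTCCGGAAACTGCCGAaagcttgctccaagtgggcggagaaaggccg
Acin1: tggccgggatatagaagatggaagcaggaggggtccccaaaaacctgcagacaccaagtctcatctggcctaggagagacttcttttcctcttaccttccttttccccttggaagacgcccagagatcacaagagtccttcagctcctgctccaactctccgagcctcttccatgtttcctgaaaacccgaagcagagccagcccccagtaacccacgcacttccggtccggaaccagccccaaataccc
Ube2m: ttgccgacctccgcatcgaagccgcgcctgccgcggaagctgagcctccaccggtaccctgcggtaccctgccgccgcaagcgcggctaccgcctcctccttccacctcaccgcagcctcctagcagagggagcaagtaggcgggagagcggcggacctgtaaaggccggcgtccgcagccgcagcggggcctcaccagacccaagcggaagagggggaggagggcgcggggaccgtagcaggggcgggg

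Creb1, Pik3r2 and Cdc27 each held 1 match, with its first base 31, 20 and 34 bases before the gene's start. Mark2 held 2 overlapping matches on opposite strands, which appear as a single run of capitals. Myl4, whose start faces that of Cdc27, held 4 matches, at first bases 123, 83, 63 and 21 before its start. The last of them is the Cdc27 match read on the other strand, since the Cdc27 and Myl4 windows overlap. All of these sit beside a summit of more than 100 fragments in both replicates.

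A second set of promoters carried many copies of the shorter word TCGG, which reads CCGA on the other strand and is marked in capitals here. Commd3, at chr2:18672185-18672434 on the plus strand, is among the 3 genes with the highest count, and was chosen for that.
Commd3: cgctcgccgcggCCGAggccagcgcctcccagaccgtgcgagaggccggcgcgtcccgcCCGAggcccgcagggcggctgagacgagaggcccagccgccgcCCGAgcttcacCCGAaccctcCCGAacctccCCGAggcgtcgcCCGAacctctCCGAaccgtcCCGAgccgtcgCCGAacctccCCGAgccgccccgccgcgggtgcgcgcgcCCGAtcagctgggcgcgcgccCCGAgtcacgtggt

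The Commd3 window held 13 copies of TCGG, all of them as CCGA on the gene's strand. It also held 45 CpG and was 78.8% G and C, so a high count of any word with a CpG must be read against its CpG content. The same count of 13 was found at Eif4g3, a translation initiation factor, and Pik3r2. The Deaf1 promoter had 12, all of them on one strand, together with 9 copies of TTCG. The whole table had 15 windows with at least 9 copies of TCGG, and 10 of these lay at the tallest replicate 1 peak of a domain, 2 at another peak and 3 at no peak. The 10 windows belonged to 9 genes, and those of Deaf1 and Tmem80 overlap, so the windows are not separate finds.

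Across the promoter table these words were more frequent at tallest domain peaks than at other peaks. Windows were assigned to a peak group when the gene's start in the table lay within 1 kb of a summit. TCGG and its limits of 5 and 9 copies were not fixed beforehand, so these shares are a description. At least 5 copies were found in 18 of 54 windows at tallest replicate 1 peaks, or 33.3% (21.1 to 47.5). These windows belonged to 44 genes, of which 17 had such a window. All 18 lay at tallest peaks of at least 50 fragments in replicate 1. There they were 18 of 43 windows, or 41.9% (27.0 to 57.9). Over all 21045 windows the share was 2.35%. The share was 4.84% at other domain peaks of replicate 2 (3 of 62), 5.41% at replicate 1 peaks elsewhere, 5.60% at replicate 2 peaks elsewhere and 1.85% at no peak. Windows at peaks elsewhere with at least 50 fragments in replicate 1 gave 5.56% (2 of 36, interval 0.680 to 18.7), and those of replicate 2 gave 9.46% (14 of 148, interval 5.27 to 15.4). Per 100 CpG, TCGG occurred 20.5 times at tallest peaks, 9.65 times at peaks elsewhere and 9.24 times in all windows.

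The 13-letter pattern was rare in promoters. It occurred in 23 of 21045 windows, or 0.109%, and 12 of those 23 lay at the tallest replicate 1 peak of a domain, 6 at peaks elsewhere and 5 at no peak. At tallest replicate 1 peaks this was 12 of 54 windows, or 22.2% (12.04 to 35.6). All 12 lay at tallest peaks of at least 50 fragments, where they were 12 of 43 windows, or 27.9% (15.3 to 43.7). Counted by gene over all tallest replicate 1 peaks, the pattern was found at 11 of 44, or 25%. Some of these windows overlap and hold the same site. At other domain peaks of replicate 2 it was 0 of 62 windows, with an upper bound of 5.78%. At replicate 1 peaks elsewhere of at least 50 fragments it was 2 of 36, or 5.56% (0.680 to 18.7), an interval that overlaps that of the tallest domain peaks, and in replicate 2 it was 4 of 148, or 2.70% (0.741 to 6.78). With the printed genes left out, 6 of 43 windows at tallest peaks held it, or 13.95% (5.30 to 27.9), in 5 genes. The 11 genes were Creb1, Pik3r2, Cdc27, Myl4, Mark2, Ube2m (in another of its windows), Eef1b2, Tmed8, Trio, Mta2 and Eif4g3. In 10 of these 11 genes the nearest match was centred within 100 bp of the tallest replicate 1 summit, with a median of 40 bp, and the exception was Ube2m at 407 bp. The word TTTCCG alone occurred in 44.4% of windows at tallest peaks, in 36.1% at replicate 1 peaks elsewhere of at least 50 fragments (37.8% in replicate 2), in 25.5% at all replicate 1 peaks elsewhere and in 8.91% of all windows.

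The word TTCG was common in all groups. It occurred in 43% of all windows, in 63.6% (54.2 to 72.2) of the 118 windows at a replicate 2 domain peak and in 74.1% (60.3 to 85.0) of those at a tallest replicate 1 peak. At replicate 1 peaks elsewhere the share was 63.0%, and at no peak 40.2%. Per 100 CpG, TTCG occurred 10.6 times at tallest peaks, 5.92 times at peaks elsewhere and 5.28 times in all windows. A match is a description of the letters in a window and not a measured site, and the sequences under the peaks themselves were not analysed here.

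**Figure D2:**
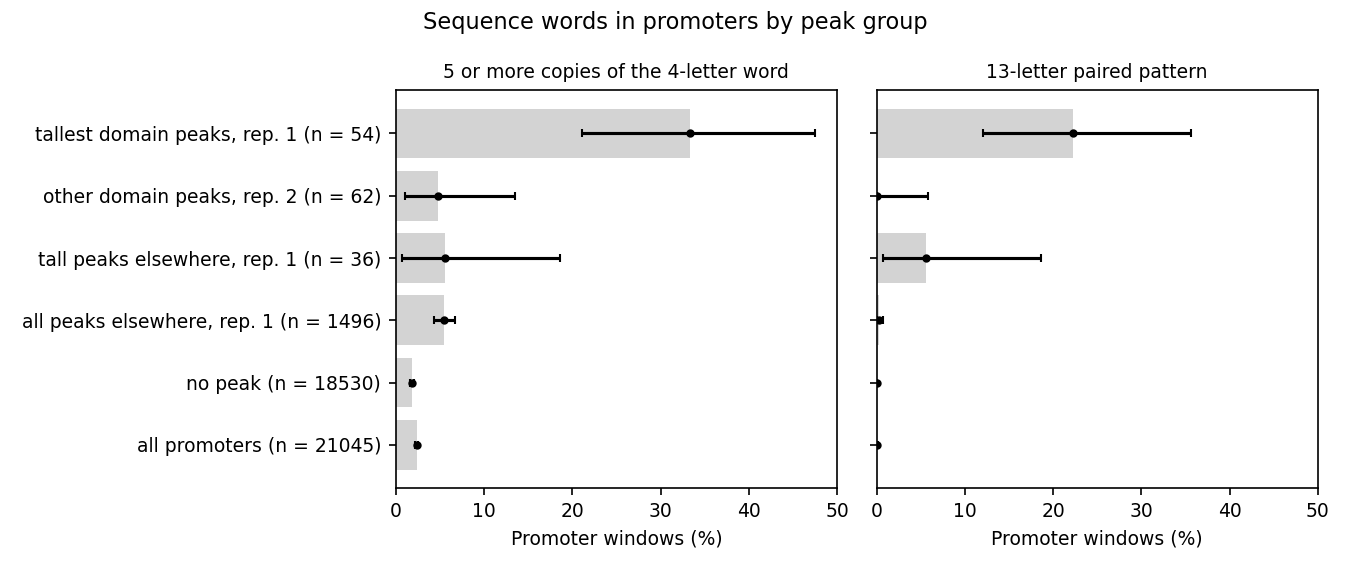
Share of promoter windows with at least 5 copies of TCGG (left) and with the 13-letter pattern (right), as a percent of the windows in each peak group, with exact binomial 95% intervals. Neither word was fixed beforehand, and some windows overlap, which the intervals do not take into account. The bars for tallest domain peaks reach 33.3% and 22.2%, and all such windows lay at summits of at least 50 fragments in replicate 1. Other domain peaks are those of replicate 2, at 4.84% and 0, and tall peaks elsewhere are those of replicate 1, at 5.56% in both panels with wide intervals.

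Tall summits of replicate 1 often lay in the domains. Replicate 1 did not choose the domains, but both libraries read the same places, so these shares are not independent of the rule. A summit of at least 50 fragments, a threshold chosen after the values were seen, was found at 97 replicate 1 peaks (5.22%), and 52 of these, or 53.6% (43.2 to 63.8), lay in a domain. At 40 fragments the share was 28.9% (58 of 201), and at 75 it was 82.9% (34 of 41). Of the 20 highest replicate 1 summits 18 lay in domains, and of the 50 highest, 39. Of the 45 replicate 1 peaks wider than 1 kb (2.42% of all), 33 lay in domains, and in replicate 2, where such peaks were 2.24% of all, 51 of 70 did. In replicate 2, 60 of 204 summits of at least 50 fragments (6.53% of all peaks) lay in domains, or 29.4%.

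Tall summits outside the domains were lower, narrower and more often alone. The 43 such replicate 1 summits outside the domains and the chromosome 10 chain had a median of 58 fragments and a width of 270 bp, against 84.5 fragments and 1506 bp inside domains. Inside domains a tall replicate 1 summit had a median of 5 other replicate 1 peaks within 20 kb, and 4 of 52 had none. Elsewhere the median was 0, and 27 of 43 had none, and the most was 8. Since both libraries read the same places, a stretch that is peak-dense in replicate 2 is apt to be so in replicate 1, and these neighbour counts are not independent of the rule.

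The median height of the low peaks stayed between 16 and 22 fragments at all distances from the tall summit. Their distances are a description, because the rule joined peaks by their gaps. In replicate 1 the other domain peaks lay a median of 2.46 kb from the tallest summit, and in replicate 2 a median of 4.40 kb. Within 2 kb of it, 107 replicate 1 peaks had a median of 17 fragments. Between 2 and 5 kb, 92 peaks had a median of 16, and between 10 and 20 kb, 28 peaks had a median of 19. Between 20 and 50 kb, 17 peaks had a median of 21, and beyond 50 kb, 5 peaks had a median of 22. The lowest peak in each class held 11 to 13 fragments, so these medians lay near the floor of the calls. The farthest peak of replicate 1 was 77.7 kb away, in the Mark2 domain. Where the tallest summit lay within 1 kb of a gene start in the promoter table (38 domains, median distance 70 bp), low peaks lay on both sides. Replicate 1 had 79 on the upstream and 102 on the downstream side, and replicate 2 had 171 and 162. By domain, replicate 1 had more downstream in 21, more upstream in 9 and equal sides in 8. Replicate 2 had 16, 16 and 6, so the libraries differed in this. The side was set by the nearest start, also where 2 starts face each other.

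Outlines of wide peaks differed between the lists. Of the 269 lower replicate 1 domain peaks, 82 overlapped the single tallest peak of replicate 2, 172 overlapped only another replicate 2 peak of the domain, and 15 overlapped none. Part of the lower peaks of replicate 1 thus overlapped, wholly or partly, what replicate 2 listed as 1 tallest peak.

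**Figure D3:**
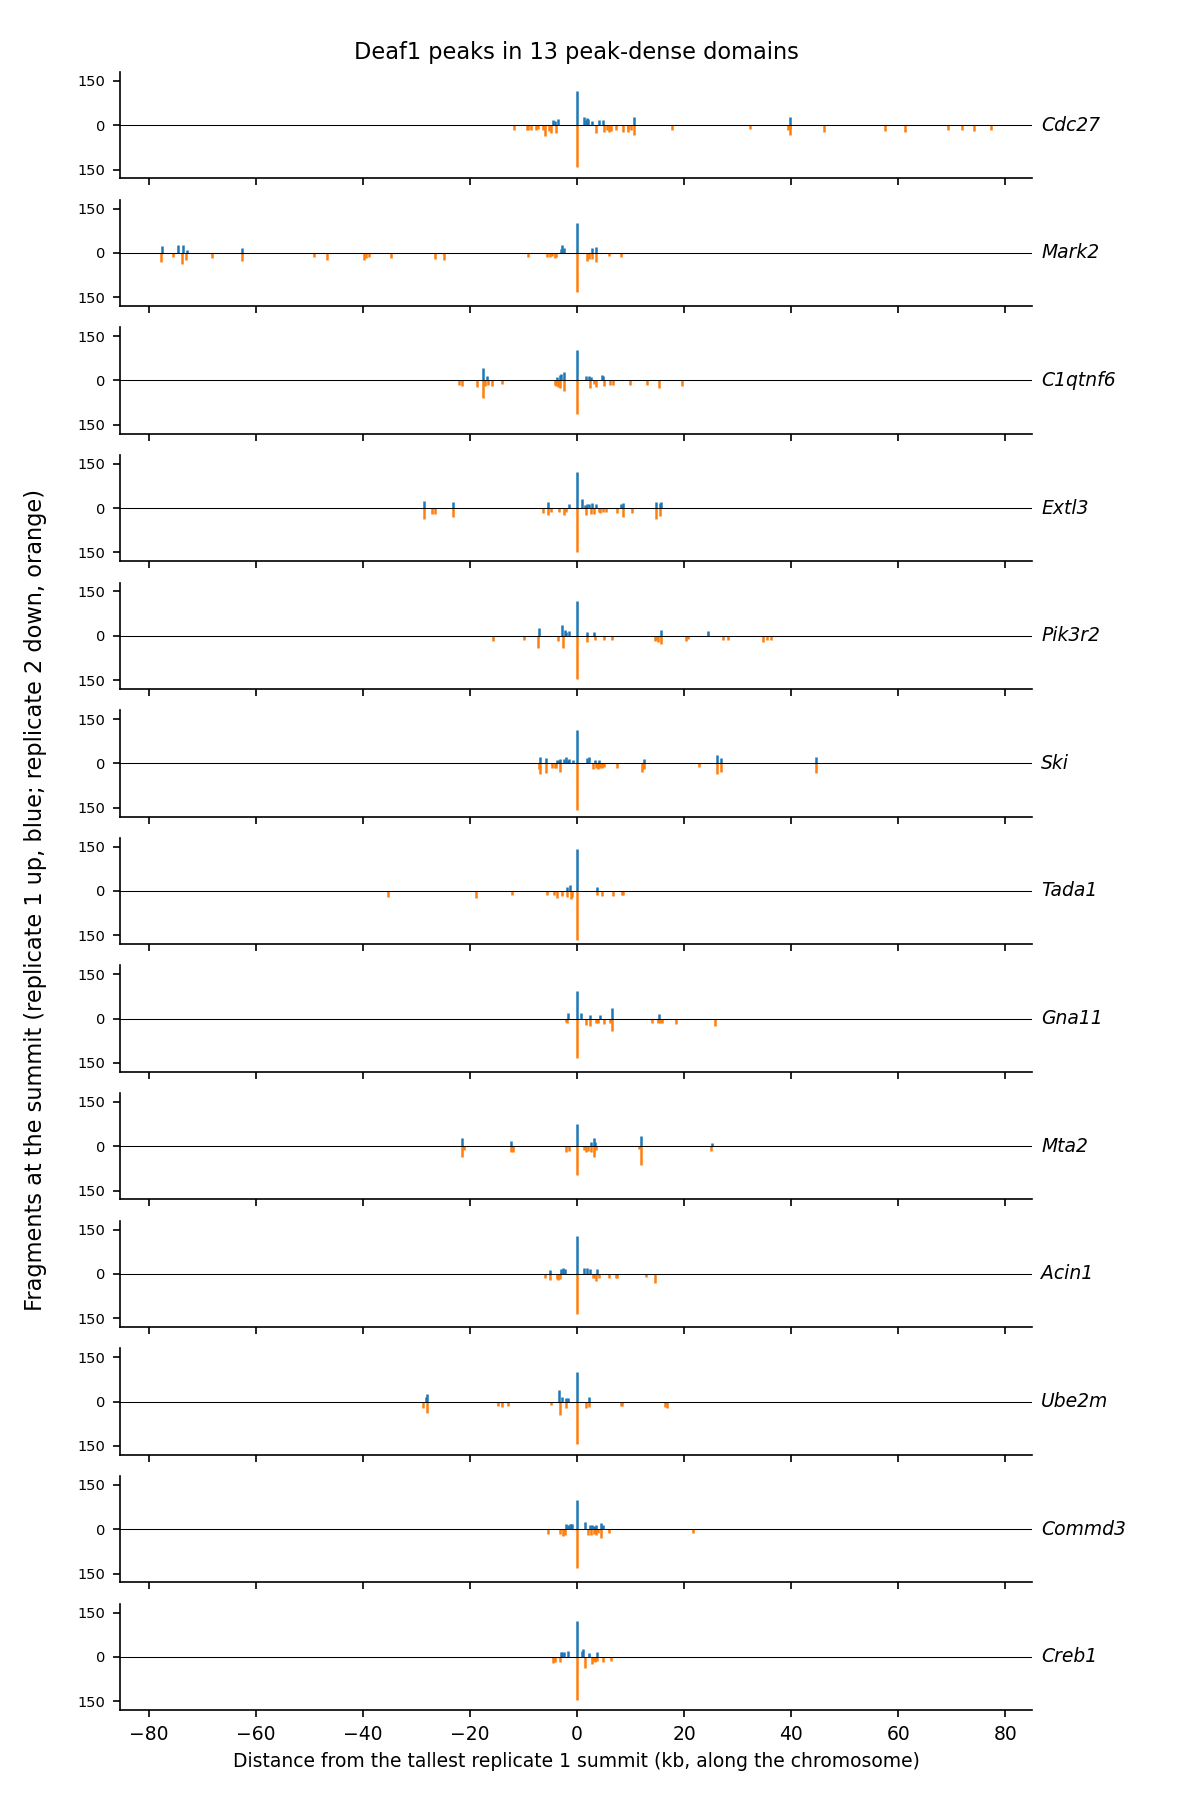
Every peak of the 13 domains described singly, drawn at its distance in kb from the tallest replicate 1 summit, with replicate 1 fragments upward in blue and replicate 2 fragments downward in orange. Each row shows 1 tall line in both libraries at distance 0 and short lines around it, out to 77.7 kb in the Mark2 domain.

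The domain with most peaks spanned Cdc27, a subunit of the anaphase-promoting ubiquitin ligase, Myl4, an alkali myosin light chain of embryonic and atrial muscle, and Itgb3, the integrin beta-3 chain. It covered 89.1 kb at chr11:104538804-104627908, with 35 peaks in replicate 2 and 13 in replicate 1. The tallest summit, 9 bp from a Cdc27 start in replicate 1, held 117 fragments in replicate 1 (96.8 to 140.2) and 143 in replicate 2 (121 to 168), and the fold enrichment was 28.6 ± 5.50 (SD, n = 2). This is the promoter with the matches of Cdc27 and Myl4 printed above. The other replicate 1 peaks held between 13 and 28 fragments and reached 39.7 kb from the summit, so no other peak there came near the tall one. The only peak at an Itgb3 end was a replicate 2 call of 21 fragments that overlapped no replicate 1 peak.

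The Ube2m domain lay around the gene of a NEDD8-conjugating enzyme. It covered 45.7 kb at chr7:13009206-13054930, and its tallest summit held 101 fragments in replicate 1 (82.3 to 122.7) and 143 in replicate 2 (121 to 168). Its fold enrichment was 36.7 ± 0.359 (SD, n = 2). It ran through a cluster of genes, and 11 of its 15 replicate 2 peaks had their summit no more than 1 kb from a gene end, which held for 68.5% of all replicate 2 summits. These genes were Zbtb45 and Mzf1, which encode zinc finger proteins, Trim28, the corepressor of KRAB zinc finger proteins, Chmp2a, a subunit of the ESCRT-III membrane complex, Gm31649 and Ube2m itself. The second tallest summit lay 111 bp from an end of Chmp2a in replicate 1 and held 38 fragments.

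Among genes of signalling, Mark2, a microtubule-regulating kinase, had a domain of 85.9 kb at chr19:7264219-7350161 that also reached Rcor2, a member of the CoREST corepressor family. Its tallest summit held 101 fragments in replicate 1 (82.3 to 122.7) and 131 in replicate 2 (109.5 to 155), and the fold enrichment was 39.6 ± 4.48 (SD, n = 2). The remaining replicate 1 peaks, 10 in number, held between 11 and 25 fragments, and all of them overlapped a replicate 2 peak. In replicate 1 the low peaks lay either within 10 kb of the summit or beyond 60 kb, toward Rcor2. Replicate 2 had peaks in both places and 8 more between them, from 24.9 to 49.1 kb away, none of which overlapped a replicate 1 peak.

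Pik3r2 encodes a regulatory subunit of phosphoinositide 3-kinase, and its domain covered 52.2 kb at chr8:70760991-70813181. The tallest summit held 119 fragments in replicate 1 (98.6 to 142.4) and 147 in replicate 2 (124.2 to 173), and the fold enrichment was 40.5 ± 10.5 (SD, n = 2). The domain had replicate 2 peaks at the ends of Mpv17l2, of Ifi30, a lysosomal thiol reductase, and of Mast3, a serine/threonine kinase. Of the 9 other replicate 1 peaks, 1 lay at a gene end, that of Mast3. Its second tallest summit held 35 fragments in replicate 1, 2.77 kb from the tallest, and 43 in replicate 2.

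Gna11 encodes a G protein alpha subunit, and its domain covered 28.0 kb at chr10:81543104-81571081, apart from the large chain on that chromosome. It also had a replicate 2 peak of 16 fragments at an end of Tle5, a member of the Groucho family of corepressors. That peak overlapped no replicate 1 peak. The tallest summit held 95 fragments in replicate 1 (76.9 to 116.1) and 133 in replicate 2 (111.4 to 158). Its fold enrichment of 22.1 ± 1.199 (SD, n = 2) was lower than at most of the named domains, and the background at that summit was 1.95 and 2.31 times the genome-wide level.

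The C1qtnf6 domain on chromosome 15 had 24 peaks in replicate 2 and 12 in replicate 1 over 41.9 kb, at chr15:78510197-78552128. It also reached ends of Il2rb, the interleukin-2 receptor beta chain, and Sstr3, a somatostatin receptor. The only peak within 1 kb of an Il2rb end was a replicate 2 call of 18 fragments that overlapped no replicate 1 peak. The tallest summit held 102 fragments in replicate 1 (83.2 to 123.8) and 112 in replicate 2 (92.2 to 134.8), where the background was 2.93 and 2.31 times the genome-wide level. Its fold enrichment of 17.9 ± 2.08 (SD, n = 2) was the smallest of the 13 domains described singly. A second summit 17.6 kb away, 3146 bp from an end of Il2rb in replicate 1, held 43 and 59 fragments.

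Extl3, a glycosyltransferase of heparan sulfate synthesis, held a domain wholly inside its span. It covered 44.6 kb at chr14:65069394-65113954, and all 23 of its replicate 2 peaks lay within the gene and none at a gene end. The tallest summit, 46080 bp from the nearest gene end, held 123 fragments in replicate 1 (102.2 to 147) and 149 in replicate 2 (126 to 175), and the fold enrichment was 46.4 ± 3.05 (SD, n = 2). The gene table has 1 span per gene, so whether an internal start lies there was not analysed. A lower domain of 5 replicate 2 peaks lay 25.8 kb away at the end of the same gene, with tallest summits of 30 and 39 fragments.

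Several tall domains lay at genes of transcription and chromatin. Creb1, the cAMP response element binding factor, had the most compact domain of the 13, with 11 replicate 2 and 9 replicate 1 peaks in 11.04 kb at chr1:64528045-64539088. Its tallest summit held 121 fragments in replicate 1 (100.4 to 145) and 145 in replicate 2 (122.4 to 171), and the fold enrichment was 39.3 ± 8.16 (SD, n = 2). All 9 replicate 1 peaks overlapped a replicate 2 peak. The highest of the other replicate 1 peaks held 26 fragments.

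Ski, a proto-oncogene product that represses SMAD signalling, had a domain of 52.2 kb at chr4:155215976-155268175 that reached Faap20, a component of the Fanconi anaemia core complex. It had the most replicate 1 peaks of any domain, 19, against 21 in replicate 2. The tallest summit, 724 bp from the gene end, held 113 fragments in replicate 1 (93.1 to 135.9) and 158 in replicate 2 (134.3 to 185), and the fold enrichment was 46.1 ± 7.63 (SD, n = 2). The replicate 1 summit nearest a Faap20 end lay 2485 bp from it. Lower domains followed on the same chromosome. One over Ski and Morn1 lay 26.0 kb away with summits of 23 and 32 fragments, and one inside Morn1, near Rer1, lay 30.8 kb beyond it with 31 and 47.

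Tada1 encodes a subunit of the SAGA histone acetyltransferase complex, and its domain held the highest summit of all. That summit had 141 fragments in replicate 1 (118.7 to 166) and 165 in replicate 2 (140.8 to 192), 36 bp from the gene end, and the fold enrichment was 46.4 ± 10.4 (SD, n = 2). The domain covered 44.2 kb at chr1:166343695-166387854. Replicate 1 called 4 peaks there and replicate 2 called 16, and the 3 lower replicate 1 peaks all lay within 3.65 kb of the summit.

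Mta2, a subunit of the NuRD corepressor complex, had a domain of 46.9 kb at chr19:8920287-8967184. The tallest summit held 75 fragments in replicate 1 (58.99 to 94.0) and 97 in replicate 2 (78.7 to 118.3), the lowest of the domains described singly, and the fold enrichment was 29.4 ± 3.26 (SD, n = 2). The domain had further summits at gene ends. One at Tut1, a terminal uridylyltransferase, held 36 and 65 fragments, and one at B3gat3, a glucuronyltransferase of proteoglycan synthesis, held 29 and 36. Others lay at Rom1, Eml3 and Eef1g, a subunit of translation elongation factor 1, and 8 of its 16 replicate 2 peaks were at gene ends, a smaller share than the 68.5% of all replicate 2 summits.

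Acin1, a component of complexes on spliced RNA, had a domain of 20.8 kb at chr14:54680870-54701685. Its tallest summit held 127 fragments in replicate 1 (105.9 to 151) and 134 in replicate 2 (112.3 to 159), and the fold enrichment was 41.1 ± 2.22 (SD, n = 2). This was the second highest replicate 1 summit of a domain. All 9 of its replicate 1 peaks overlapped a replicate 2 peak, and 1 other replicate 1 peak lay at a gene end. The promoter printed above held 1 TTCG and no 13-letter match, so a tall domain did not require the match within that window.

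The Commd3 domain lay at adjacent genes for Commd3, a COMM-domain trafficking protein, Bmi1, a subunit of Polycomb repressive complex 1, and Spag6, a protein of the sperm flagellum. It covered 27.3 kb at chr2:18666845-18694129, and its tallest summit held 100 fragments in replicate 1 (81.4 to 121.6) and 132 in replicate 2 (110.4 to 157), and the fold enrichment was 39.6 ± 4.96 (SD, n = 2). Replicate 1 had 13 peaks and replicate 2 had 14, and all 12 lower replicate 1 peaks lay within 4.81 kb of the summit and overlapped a replicate 2 peak. The only peak at the Spag6 end was a replicate 2 call of 12 fragments that overlapped no replicate 1 peak.

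The remaining tall domains, those with a replicate 1 summit of at least 50 fragments, are named to account for every member and were not selected for their genes. Those with a replicate 1 summit of 77 to 115 fragments lay at or nearest Zc3h4, Crebbp, Ndufs1 with Eef1b2, Pex2, Tmem80, Ercc4, U2af2, Ano6, Rpl28, Gsk3b, Rac1, Trio, Rbfox2, Arglu1, Zhx3, Eif4g3 and Esp38. Those with 53 to 74 fragments lay at or nearest Tsc22d1, Znhit2, Yipf6, Tmprss6, Egr2, Bmpr1a, Tspan6, Spats2, Mboat7, Arhgap17, Tmed8, Impa1, Ppm1l, Dab2ip, Clip2 and Impact. Crebbp, the histone acetyltransferase that CREB1 recruits, had summits of 115 and 147 fragments at a domain of 24.5 kb. Gsk3b, a kinase of insulin and Wnt signalling, had 93 and 107 fragments.

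The Tmem80 domain contained the gene of the profiled factor and was singled out for that after its values were seen. It covered 22.5 kb at chr7:141319180-141341659, and 12 of its 13 replicate 2 peaks lay inside the span of the Deaf1 gene. The tallest summit, 32 bp from the Tmem80 end, held 96 fragments in replicate 1 (77.8 to 117.2) and 127 in replicate 2 (105.9 to 151), and the fold enrichment was 38.0 ± 4.82 (SD, n = 2). All 8 replicate 1 peaks overlapped a replicate 2 peak. A Deaf1 start in the promoter table also lay within 1 kb of that tallest summit. The Tmem80 promoter held 10 copies of TCGG and the Deaf1 promoter 12. Their windows overlap, so some copies are counted in both.

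A further 13 domains had no replicate 1 summit of 50 fragments, and their tallest held between 20 and 43. They lay at or nearest Ptprs, Rac3, Pfdn6, Rer1, 4933440N22Rik, Zfp865, Gm20783, Ccdc9, Trim41, Mettl21a and Gm29975, and at second places near Ski and Extl3. The domain named for the end of 4933440N22Rik, 976 bp away, had its tallest replicate 1 summit 0 bp from a Hnrnpf start. All 5 of its replicate 2 peaks lay inside the Hnrnpf span. The 76 replicate 2 peaks of these 13 domains were at gene ends in 40.8% of cases (29.6 to 52.7). This compares with 26.1% (22.2 to 30.2) in domains with a tall summit and 68.5% of all replicate 2 summits. In 3 of them, Rac3, Zfp865 and Pfdn6, every replicate 2 peak lay at a gene end. The Pfdn6 domain shows this form most clearly: 5 replicate 2 peaks of 31 to 47 fragments lay at gene ends in a gene-dense stretch of 65.4 kb with Kifc1, Daxx, Tapbp, Rgl2, Wdr46, Rps18 and Vps52, and the tallest peaks of the replicates had their summits 15493 bp apart.

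Domains also lay near one another, with 15 of the 59 within 100 kb of another. Besides the Ski and Extl3 neighbours, these included Ccdc9 and Zc3h4 at 77.6 kb, Creb1 and Mettl21a at 70.2 kb, C1qtnf6 and Tmprss6 at 53.9 kb, Zfp865 and U2af2 at 30.8 kb, and Trio with a low domain inside the same gene at 80.7 kb. In the pairs of Ski, Extl3, Trio, Creb1, Zc3h4 and U2af2, a domain of more than 80 fragments in replicate 1 stood beside one of at most 31, while C1qtnf6 and Tmprss6 held 102 and 65.

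The low domain peaks had a smaller share at gene ends than Deaf1 peaks elsewhere. The rule joins neighbouring peaks, so those of a domain are not independent of each other, and the rule's part in this share was not tested. A summit counted as at a gene end when either end of a protein-coding gene was no more than 1 kb away, which held for 74.1% of all replicate 1 summits. The share was 67.8% (54.4 to 79.4) for the tallest domain peaks, 40 of 59, but 27.9% (22.6 to 33.6) for the other domain peaks, 75 of 269. It was 85.9% (84.0 to 87.7) for peaks elsewhere, and 0 of 62 in the chromosome 10 chain. In replicate 2, where the share over all summits was 68.5%, the values were 69.5% for the tallest, 23.2% for the others and 82.4% elsewhere. The lower domain peaks lay inside gene spans in 71.4% of cases in replicate 1, against 54.0% elsewhere and 57.7% of all. With a window of 5 kb, 71.6% of the replicate 2 domain peaks counted as at a gene end, against 28.1% with 1 kb. Gene ends include starts and stops, since the gene table carries no strand. Only the outer ends of 1 span per gene counted, so other starts of a gene did not. Some tallest replicate 1 summits that did not count lay near another start in the promoter table. Examples were Tspan6 (0 bp), Eif4g3 (10 bp) and Ptprs (254 bp). Of the 59 tallest, 38 lay within 1 kb of a start in that table, which has no entry for some genes. The share by starts is not given here for peaks elsewhere. In 4 domains every replicate 2 peak lay at a gene end, and in 8, Tspan6 among them, none did.

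**Figure D4:**
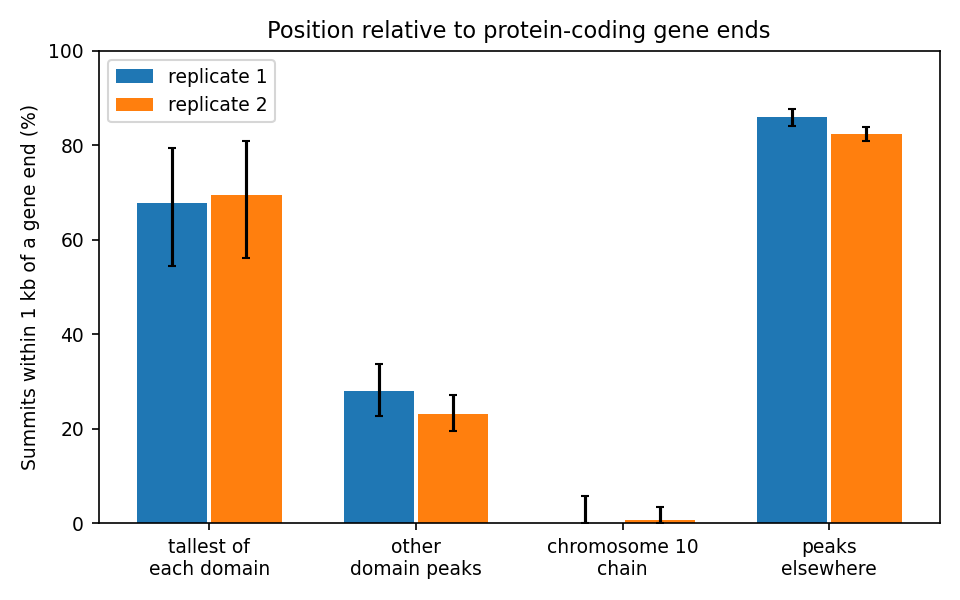
Percent of summits within 1 kb of a protein-coding gene end, for the tallest peak of each domain, the other domain peaks, the chromosome 10 chain and peaks elsewhere, with replicate 1 in blue, replicate 2 in orange and exact binomial 95% intervals. The tallest domain peaks reach 67.8% and 69.5%, the other domain peaks 27.9% and 23.2%, and peaks elsewhere 85.9% and 82.4%.

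The low peaks that filled the domains were shared between libraries at rates close to those of other peaks of their height. Of the 559 replicate 2 domain peaks, 211 overlapped a replicate 1 peak by at least 1 bp, or 37.7% (33.7 to 41.9), against 50.4% of all replicate 2 peaks and 55.4% of those elsewhere. With a reciprocal overlap of at least 50% the share was 19.1%. The tallest peaks were shared in 58 of 59 domains and the others in 153 of 500 cases, or 30.6% (26.6 to 34.8). In the reverse direction 313 of 328 replicate 1 domain peaks overlapped a replicate 2 peak, or 95.4%, against 92.4% of all replicate 1 peaks. At 15 or fewer fragments in replicate 2, the lower domain peaks were shared in 2.74% of cases and peaks elsewhere in 6.15%. From 16 to 20 fragments the shares were 18.2% and 21.6%, from 21 to 30 they were 55.6% and 56.8%, and from 31 to 49 they were 93.0% and 93.4%. In each of these height classes the intervals of both groups overlapped.

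**Figure D5:**
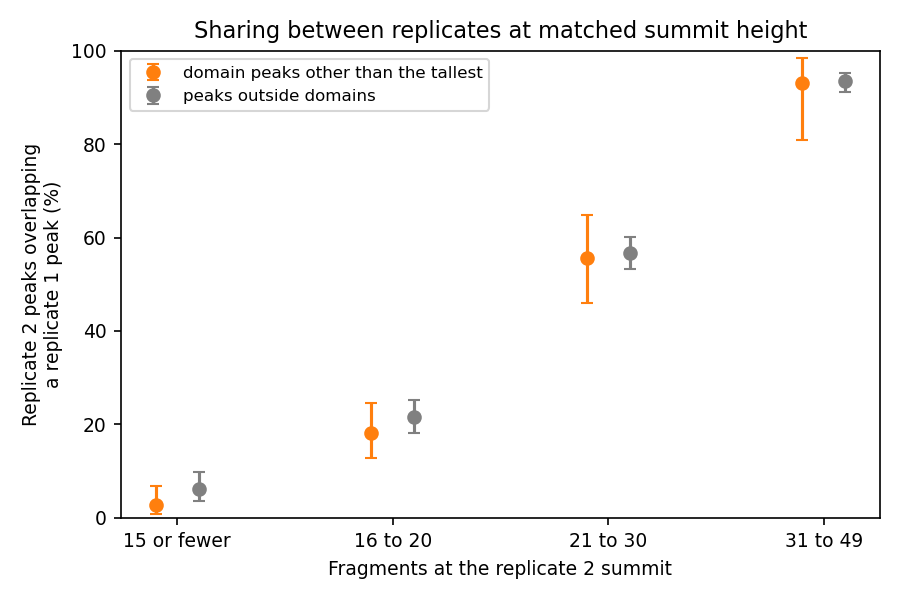
Percent of replicate 2 peaks that overlap a replicate 1 peak, in 4 classes of replicate 2 summit height, for domain peaks other than the tallest (orange) and peaks outside domains (grey), with exact binomial 95% intervals. Both groups rise together, from 2.74% and 6.15% at 15 or fewer fragments to 93.0% and 93.4% at 31 to 49.

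The combined list of the replicates gives regions a score from the irreproducible discovery rate (IDR), an estimate of how far a region's rank repeats, in which 540 stands for an IDR of 0.05. Of its 1550 regions 39.2% had at least that score, and of the 198 in domains 48 did, or 24.2% (18.4 to 30.8). Outside the domains, the chromosome 10 chain included, the share was 41.4%. Regions on a tallest peak reached it in 20 of 58 cases and had a median score of 208, against 445.5 outside the domains. The authors' score ranks regions against each other and is no measure of summit height.

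The local background, the number of fragments the peak caller expected at a summit, differed between domains. Its ratios to the genome-wide level often fell on the same few values, such as 1.46 and 1.95 in replicate 1, so they are coarse. The median ratio of a domain's peaks to the genome-wide level was at least 1.3 in 25 of 59 domains in replicate 1 and in 16 in replicate 2, and 28 and 34 domains were at the genome-wide level. Over all peaks, the median ratio was 1.06 at domain peaks of replicate 1 and 1.07 in replicate 2, against 1.06 and 1.12 at peaks elsewhere. A ratio of at least 2 was found at 8.54% of replicate 1 domain peaks (28 of 328), against 8.98% of all, and at 9.30% of replicate 2 domain peaks, against 12% of all. At the tallest replicate 1 summits the median ratio was 1.46, and in replicate 2 it was 1.07. The 7 domains on chromosome 15 had median ratios between 1.31 and 1.95 in replicate 1 and between 1.36 and 1.70 in replicate 2. Other peaks of chromosome 15 had medians of 1.71 and 1.85, so the higher level was shared by the chromosome. Its part in the number of domains there was not tested.

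One domain stood apart in background and is described because of it. It lay at chr17:39843048-39846777, 104967 bp from the nearest protein-coding gene end, that of Esp38, and overlapped Rn18s-rs5, which the gene table lists as a pseudogene and whose symbol refers to 18S ribosomal RNA. Its background was 19.99 times the genome-wide level in replicate 1 and 21.8 times in replicate 2, and the next highest domain median was 3.41 in replicate 1, at Ccdc9, and 1.70 in replicate 2. The pileups were high in every peak, from 65 to 84 fragments in replicate 1 and from 57 to 96 in replicate 2. The fold enrichments were 1.7995 to 2.46 and 1.59 to 2.30. Without this domain, 50% of the replicate 1 summits of at least 50 fragments lay in domains.

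The rule's threshold fell in a continuous range. The 12 chains with 4 replicate 2 peaks, just outside it, had a median span of 15.9 kb and tallest replicate 2 summits of 27 to 125 fragments (median 51). The 17 domains with 5 peaks, just inside, had a median span of 13.9 kb and tallest summits of 37 to 110 fragments (median 48). At least 50 fragments were reached in 6 of the 12 and in 8 of the 17. The largest gap within a domain was 19.9 kb, and the smallest gap from a domain to the next peak outside it was 20.1 kb. Over the 59 domains the span ran from 2.51 to 89.1 kb with a median of 15.1 kb, and the total was 1.36 Mb. By span, 33 were at most 20 kb, 20 were between 20 and 50 kb, and 6 were longer. They lay on 19 chromosomes, with 9 on chromosome 7 and 7 on chromosome 15. Replicate 1 had at least 5 peaks in 29 domains and a single peak in 6. With at least 8 peaks 23 domains were left, with peaks of −log10 q of at least 5 alone 36, and the same rule on replicate 1 gave 31 chains, all of them overlapping a domain.

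Few genes of the lists drawn up for this tissue lay at domain summits. Of 21631 protein-coding genes, 109, or 0.504%, had an end within 1 kb of a replicate 2 domain summit. Of 57 autophagy genes none had, although 15 had a replicate 2 peak of any kind at an end. Of 42 muscle genes only Myl4 had, and of 38 growth control genes only Ski. The Myl4 end in the gene table lay beside replicate 2 peaks of 20 to 25 fragments. The tall summit at the start facing Cdc27 was more than 1 kb from that end. At the background share, lists of these sizes would hold fewer than 1 such gene each, so the counts set no list apart.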

How the data were processed

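Deaf1 ChIP libraries (2) and inputs (2) of C2C12 cells were labelled by their titles, and the inputs' own values were not analysed here. Per the submitters' processing notes, FastQC 0.11.8, BWA 0.7.17-r1198, MACS2 2.1.2 and the build mm10 were used, with no roles stated. Whether duplicates were removed is not given in the sources used here. The deposited fold enrichment is the authors' ratio of summit height to the surrounding background. The deposited p and q are −log10 values, also from the authors' peak caller. The deposited summit offset is in bp. The combined list carries the authors' IDR score, and its 6 columns of single-sample values were not used.

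Pileup and local background were recovered from fold = (pileup + 1)/(background + 1) and the Poisson p. For 100% of peaks exactly 1 whole number fitted. On 500 simulated summits per library 100% of pileups were returned exactly, and 100% of 240 planted peaks were placed in their domain. The chaining rule was then applied, and overlap meant at least 1 bp.

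Gene ends came from 21631 protein-coding genes of RefSeq on GRCm38.p6, with 1 span per gene. The promoter table (RefSeq, GRCm38.p6) held 21045 windows for 17274 genes, and 86 of the 109 genes at domain summits had an entry. Motifs were searched on both strands as exact letters, matches of one word could overlap those of another, and TCGG and TTCG share letters.

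Domains were described singly when among the 10 with most replicate 2 peaks, the 5 with most replicate 1 peaks or the 5 with the highest replicate 1 summit. The members, the lists and this rule were chosen with earlier results of these data known. Both ChIP libraries form 1 group, so nothing was tested. Python 3.11.15 with numpy 2.4.6, pandas 2.3.3, scipy 1.17.1 and matplotlib 3.10.9 was used.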

Additional observations from a re-analysis of the deposited data

How the results depend on the processing

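With 2 libraries of 1 group, the lists show positions and heights and no change between conditions, and the recovered pileups limit precision to the counting intervals given. Of 31 alternatives, 12 stayed within the range used to call a value unchanged and 19 did not. The number of domains was 23 with at least 8 peaks, 36 with peaks of −log10 q of at least 5 only, and 31 when built without replicate 2, from replicate 1 peaks. All 31 of those overlapped a domain. With a gap of 10 or 50 kb, or at least 4 peaks, it was 54, 71 and 71. The sharing of replicate 2 domain peaks, 37.7%, became 19.1% with a reciprocal overlap of 50%, 33.7% with at least 8 peaks and 30.6% without the tallest peaks. The share at gene ends, 28.1%, became 71.6% with a window of 5 kb, 35.1% without replicate 2 and 23.2% without the tallest peaks. The median background ratio, 1.07, became 1.06 without replicate 2 or without the domain of highest background, and 1 with the strict q or as a median over domains. With the strict q the median pileup rose from 19 to 22, and 163 replicate 1 peaks lay in domains in place of 328. The share of promoters with TTCG, 63.6%, became 36.4% for at least 2 copies and 73.2% at tallest peaks. The share of tall replicate 1 summits in domains, 53.6%, became 28.9% at 40 fragments and 82.9% at 75. The settings without the tallest peaks, without the domain of highest background, at tallest peaks and at 40 and 75 fragments were chosen after seeing the data. Stricter settings leave fewer peaks, and other causes were not tested. No paired analysis was possible because both ChIP libraries form a single group and the inputs with the same numbers have no values of their own here.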

Other observations

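The 13-letter pattern gave 24 distinct sites in the promoter table, of which 14 lay at the tallest peak of a domain, 6 at peaks elsewhere and 4 at no peak. The 6 sites at peaks elsewhere were in the promoters of Pawr, Prpf19, Minpp1, Dctn3, Zbtb33 and Med12. Prpf19, a subunit of a splicing complex, had 76 fragments in replicate 1 and 103 in replicate 2 within 1 kb of its site. At Zbtb33, the gene of the methyl-CpG-binding factor Kaiso, the values were 53 and 71, and at Med12, a Mediator subunit, they were 39 and 67. Pawr had 44 and 60, Dctn3 had 23 in both libraries, and Minpp1 had a replicate 2 peak of 21 fragments only. The sites without a peak of either library were at Six4, Dffb, Iqcf4 and between Polr3c and Rnf115. All of these were named after their values were seen.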
